A study of Mus musculus with 2 samples.

Results

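The Eph receptors, ephrins, Slits, Robos, netrins, netrin receptors and Flrt proteins are the molecules by which growing axons and migrating cells read their surroundings. In the series, 42 of the 37071 gene names on the array were taken from these families by gene symbol, with Ntn1 and Robo4 left out. They were carried by 106 probes. The tissue was embryonic mouse brain at E10.5, taken from the forebrain and midbrain according to the study's methods. On each of 2 two-color arrays, the wild type RNA was labeled with Cy3 and the RNA of Plzf lu/lu embryos with Cy5. Plzf (Zbtb16) encodes a zinc finger transcription factor, and the luxoid allele (lu), inherited and so present in all cells of the embryo, is a point mutation early in its coding sequence after which most of the protein is missing. The labels give C57BL/6 as the strain of the wild type and luxoid as that of the mutant, so the mutation and any other difference between the strains cannot be told apart. No array had the dyes swapped, so a dye effect and the genotype cannot be told apart either. The number of embryos behind each RNA sample is not given in the sources used here, and the labels call the arrays biological replicates. Both arrays were on 1 slide.

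Eph receptors are receptor tyrosine kinases that are activated by ephrins on a neighboring cell, and the ephrin can signal back into its own cell. Most ephrin-As are bound by EphA receptors and most ephrin-Bs by EphB receptors, and in the early brain these pairs set boundaries between regions. Slits are secreted and repel axons through Robo receptors. Netrins attract axons through Dcc and repel them through Unc5 receptors, while Flrt proteins are leucine-rich membrane proteins that bind Unc5 receptors and latrophilins.

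Signals are processed intensities in arbitrary units, a gene is described by its brightest probe, and the arrays were not scaled to each other. The share of all genes in which the values of the genotypes do not overlap was not measured, so such separation is description only. It also compares channels across the unscaled arrays, whereas each ratio compares the genotypes within an array. Of the 42 guidance genes, 21 passed the filter of a processed signal above 200 and a signal-to-noise ratio of 5 or more, required of wild type and Plzf lu/lu on each array, which 10600 genes in all passed. A further 18 guidance genes were under that filter but well above the local background in all 4 channels, and Ntn4, Ntn5 and Unc5d were not. No gene spot was saturated. Of 59305 gene spots, 36936 for wild type and 43546 for Plzf lu/lu exceeded background clearly on array 1, against 44100 and 44318 on array 2. The probe for Zbtb16 itself went from 433 in wild type to 172 in Plzf lu/lu on array 1 and from 546 to 211 on array 2, log2 ratios of -1.33 and -1.37.

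The results turn on Ephb2, Ephb3 and, among dimmer probes, Ntng1, so the first 30 of the 60 bases of their probes are shown with the positions that the array annotation gives in build mm9. Ephb2 is shown with both of its probes because they gave opposite directions, and Ntng1 with its brighter pair because they gave the same one. No base is marked.
Ephb2, brighter probe, chr4:136209527-136209586, minus strand: cagggaatccgagcagaacaatcggttagt
Ephb2, dimmer probe, chr4:136211203-136211262, minus strand: accagatccagtctgtagaggtttgacatt
Ephb3, its only probe, chr16:21223165-21223224, plus strand: cagagactgactcagagagccagagactgt
Ntng1, brighter probe, chr3:109946348-109946407, minus strand: gcgaagaaaaccggggcgaaattgcttcga
Ntng1, dimmer probe, chr3:109584210-109584269, minus strand: tttcacagatttatggtgatcatgtgactc

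EphB receptors were the guidance genes with higher signal in Plzf lu/lu beyond 1.3-fold on both arrays, and none was lower to that extent. The 2 were Ephb2 and Ephb3, out of the 21 that passed. Over all 10600 genes, 2.58% were higher and 0.736% lower by the same rule. On array 1 alone, 6 of the 21 were higher and 2 lower beyond 1.3-fold, beside 8.25% and 5.58% of all genes. On array 2 alone the counts were 5 and 1, beside 4.50% and 1.96%. The 21 genes had a median log2 ratio of 0.09, with 0.13 on each array, against 0.01 for all genes. Of the 21, 11 had the same sign on both arrays, 8 of them positive, while 72.6% of all genes did.

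Ephb2, a receptor for ephrin-Bs in axon guidance and boundary formation, measured 1260 in wild type and 1688 in Plzf lu/lu on array 1. On array 2 it measured 1461 and 2090. Both Plzf lu/lu values lay above both wild type values, 1.34-fold and 1.43-fold. The mean log2 ratio was 0.47 ± 0.08 (limma SE, n = 2 arrays), with an unadjusted p of 0.00111 and an adjusted p of 0.0541 by limma over all 10600 genes. Here and below, the SE is the moderated SE of limma, which is drawn toward the variance of all genes. It is not the SE of the 2 array ratios alone. The study lists Ephb2 among its changed genes, and its listing rests on these same arrays. Its dimmer probe, 1676 bases away, went the other way, from 138 to 123 on array 1 and from 163 to 138 on array 2, log2 ratios of -0.16 and -0.24. The 2 probes of the gene thus disagreed in direction on both arrays, each by more than the spread between arrays (SD of 0.07 for the brighter and 0.06 for the dimmer probe).

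Ephb3, which like Ephb2 responds to ephrin-Bs, measured 8556 in wild type and 12429 in Plzf lu/lu on array 1, and 7473 and 10619 on array 2. The Plzf lu/lu values were above both wild type values, 1.45-fold and 1.42-fold, and the arrays agreed closely (SD of the 2 log2 ratios 0.02). The mean log2 ratio was 0.52 ± 0.07 (limma SE, n = 2). The unadjusted limma p was 0.000549 and the adjusted p 0.0510. Unlike Ephb2, Ephb3 is not in the study's list of changed genes. No guidance gene had an adjusted p under 0.05, a threshold that 3 of the 10600 genes passed, all higher (0.0283% of all genes). Under 0.1, 5 guidance genes passed, all higher in Plzf lu/lu (Ephb1, Ephb2, Ephb3, Slit2 and Unc5b), beside 7.60% of all genes higher and 4.55% lower.

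When the dependence of the ratios on probe GC content was removed, the Ephb2 ratios became 0.34 and 0.48 on the log2 scale, so that array 1 no longer reached 1.3-fold, while Ephb3 had 0.66 and 0.55. Over all genes, probe GC content and log2 ratio had a Spearman correlation of -0.33. The Ephb2 probe holds 36.7% GC and the Ephb3 probe 51.7%.

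**Figure D1:**
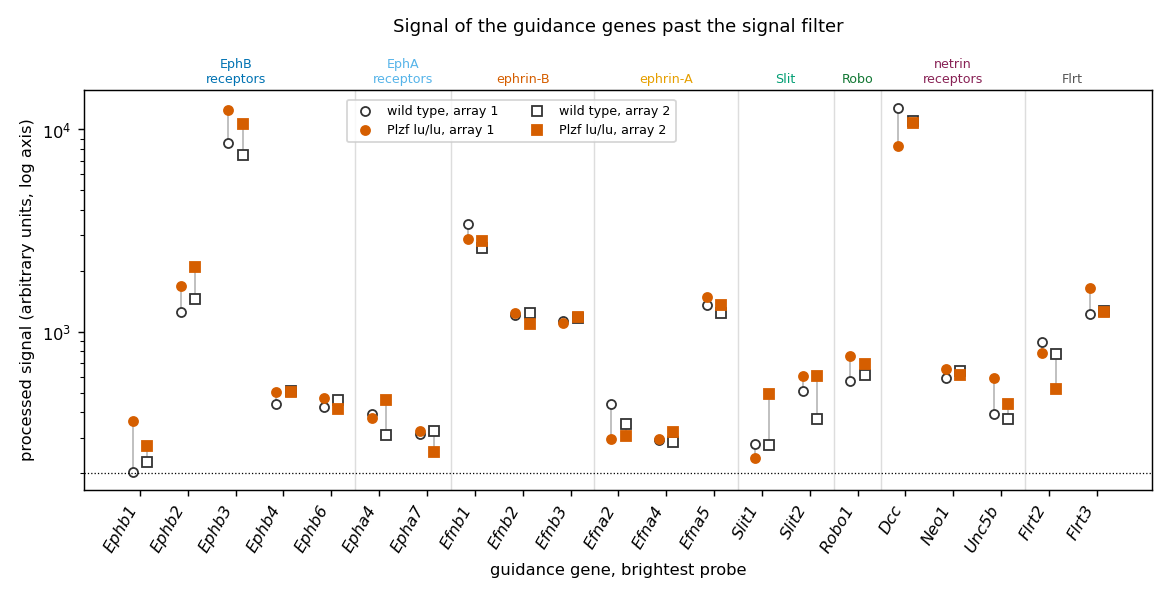
Processed signal (log axis, arbitrary units) of the 21 guidance genes past the signal filter, with open symbols for wild type and filled symbols for Plzf lu/lu, circles for array 1 and squares for array 2, and a dotted line at 200. Levels are read within a gene only. For Ephb2 and Ephb3 both filled symbols lie above both open ones, while the 3 ephrin-Bs have them close together.

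The remaining EphB receptors varied more between the arrays. Ephb1 measured 202 and 363 on array 1 but 229 and 274 on array 2, 1.79-fold and 1.20-fold higher in Plzf lu/lu. The Plzf lu/lu values were above both wild type values. The mean log2 ratio was 0.55 ± 0.14 (limma SE, n = 2, SD of the 2 ratios 0.41), and the adjusted limma p was 0.0918. Its second probe, which was dimmer, had log2 ratios of 0.07 and 0.06. Ephb1 lies on chromosome 9, as Zbtb16 does, with 53.4 Mb between their probes. Ephb4, the receptor best known from veins, had log2 ratios of 0.20 and -0.01, and Ephb6, a family member without kinase activity, had 0.16 and -0.15. All 5 EphB receptors passed the filter, and their median log2 ratio was 0.47 (0.42 on array 1, 0.26 on array 2). Their signs agreed on both arrays for 3 of the 5.

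Of the 9 EphA receptors, Epha4 and Epha7 passed the filter. Epha4, a receptor that binds ephrins of both classes, measured 395 and 374 on array 1 and 310 and 461 on array 2. It was thus level on the first array and 1.49-fold higher in Plzf lu/lu on the second (log2 ratios of -0.08 and 0.57, limma unadjusted p = 0.165). Epha7, which marks regional domains of the early brain, had log2 ratios of 0.05 and -0.34.

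The ligands of the EphB receptors gave no such difference. Efnb1 measured 3405 in wild type and 2861 in Plzf lu/lu on array 1, and 2589 and 2826 on array 2. Efnb2 measured 1217 and 1241 on array 1, and 1245 and 1089 on array 2. Efnb3 measured 1126 and 1108, then 1169 and 1178. The mean log2 ratios of these transmembrane ligands lay between -0.08 and -0.01, and each changed sign between arrays. The 95% intervals of the limma fit were -0.33 to 0.21 for Efnb1, -0.30 to 0.14 for Efnb2 and -0.19 to 0.18 for Efnb3. These intervals exclude an increase as large as the mean log2 ratio of Ephb2 or Ephb3, but the difference between receptors and ligands was not tested.

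Among the ephrin-As, which are held to the membrane by a lipid anchor, Efna2 measured 438 in wild type and 295 in Plzf lu/lu on array 1, and 351 and 307 on array 2. Both Plzf lu/lu values were below both wild type values (mean log2 ratio -0.38 ± 0.11 limma SE, n = 2, SD of the 2 ratios 0.27, limma unadjusted p = 0.0142, adjusted p = 0.106). Efna5, the ligand that patterns retinal projections in the midbrain, had a log2 ratio of 0.13 on each array, and its next probe had 0.29 and 0.18. Efna4 had 0.03 and 0.16. By unadjusted limma p under 0.05, 6 of the 21 guidance genes were higher (Ephb1, Ephb2, Ephb3, Slit2, Robo1 and Unc5b) and 2 lower (Efna2 and Flrt2), beside 15.7% of all genes higher and 12.0% lower.

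**Figure D2:**
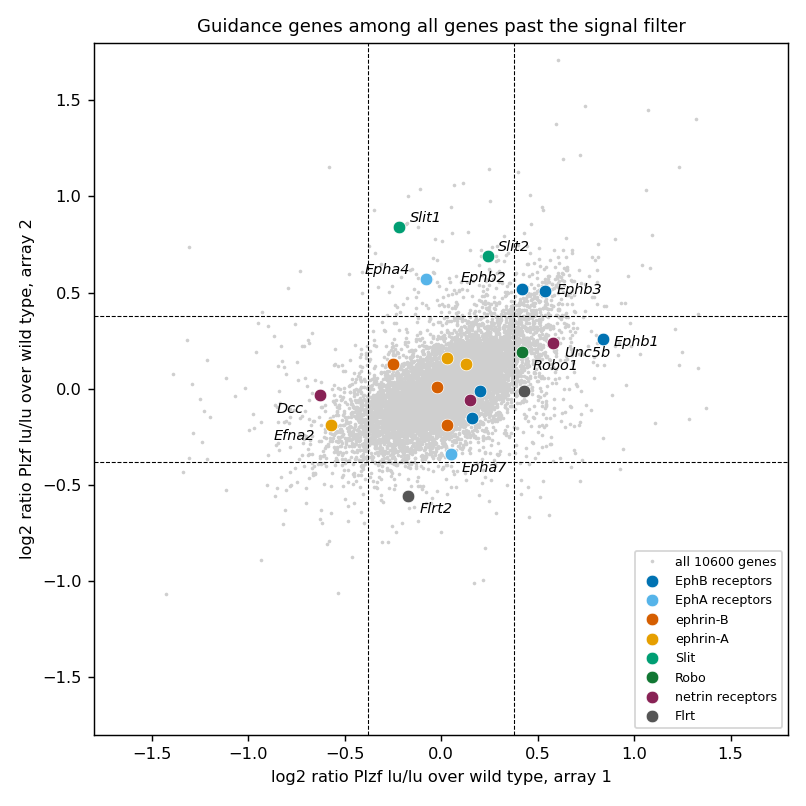
Log2 ratio of Plzf lu/lu over wild type on array 1 (x axis) and array 2 (y axis), with the 10600 genes past the signal filter in grey and the 21 guidance genes colored by role. Dashed lines mark 1.3-fold in each direction, and 4 genes lie outside the axes. Ephb2 and Ephb3 are the guidance genes in the upper right corner, while Slit1 and Epha4 are high on array 2 only.

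Across the 21 guidance genes, array 1 and array 2 log2 ratios correlated with a Pearson r of 0.28, against 0.55 across all 10600 genes. The genes share the same 4 RNA samples, so this is a description across genes and not a test.

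Of the Slits, Slit1 and Slit2 passed the filter, and neither was beyond 1.3-fold on both arrays. Slit2, expressed at the ventral midline, measured 508 and 602 on array 1, and 373 and 603 on array 2 (1.18-fold and 1.62-fold). The wild type channel differed between the arrays more than the Plzf lu/lu channel did. The mean log2 ratio of Slit2 was 0.47 ± 0.12 (limma SE, n = 2, SD of the 2 ratios 0.32), with an adjusted limma p of 0.0915. Slit1 measured 279 and 239 on array 1 but 275 and 494 on array 2, log2 ratios of -0.22 and 0.84 (limma unadjusted p = 0.238). Robo1, the widely expressed Slit receptor, measured 570 and 760 on array 1, and 609 and 693 on array 2. Its mean log2 ratio was 0.30 ± 0.09 (limma SE, n = 2, SD of the 2 ratios 0.16), with an adjusted limma p of 0.110. Slit3, with log2 ratios of 0.10 and 0.08, Robo2 and Robo3 were under the signal filter. Robo3, which allows commissural axons to cross the midline, had opposite log2 ratios of -0.64 and 0.75.

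Several neuron markers and the forebrain markers Emx2 and Lhx2 had, like Slit1 and Epha4, higher ratios on array 2 than on array 1. The neuron list (Tubb3, Stmn2, Dcx, Elavl3, Elavl4, Nhlh1 and Nhlh2, all well above background, 5 past the filter) had a median log2 ratio of -0.02 on array 1 and 0.60 on array 2. Of the 5, Elavl4 was higher beyond 1.3-fold on both arrays (log2 ratios of 0.40 and 0.75) and Tubb3 had 0.33 and 0.79, while Stmn2, Elavl3 and Nhlh1 were between -0.14 and -0.02 on array 1. The list's summed signal was 6099 and 5380 in the wild type channels, and 6403 and 8510 in the Plzf lu/lu channels. Of the forebrain markers, Six3 and Dlx2 were higher beyond 1.3-fold on both arrays. Emx2 and Lhx2 had log2 ratios of -0.16 and -0.18 on array 1, but 0.62 and 0.86 on array 2. Of the floor plate list (Shh, Foxa1, Foxa2, Spon1 and Nkx2-9), Shh and Foxa2 passed the filter and were higher on both arrays, Shh by log2 ratios of 1.06 and 1.03. Nkx2-9, under the filter but well above background, went the other way, with log2 ratios of -1.03 and -0.49. The list summed to 1279 and 1525 in wild type, and 1979 and 2906 in Plzf lu/lu. The midbrain and isthmus list summed to 3145 and 3401 in wild type and to 1760 and 2093 in Plzf lu/lu, with En1 not well above background. This difference lay in En2, which had log2 ratios of -1.86 and -1.25, and without it the sums were 1228 and 1091 in wild type and 1233 and 1118 in Plzf lu/lu. Among the other members, Wnt1 was lower on both arrays (log2 ratios of -0.60 and -0.21) and Fgf8 was higher (0.40 and 0.19). Pax2 and Pax5 had mean log2 ratios of -0.06 and -0.02. Of the hindbrain list, Egr2, Hoxa2, Hoxb1 and Hoxb2 were not well above background, and Gbx2, which was, went from 34.7 to 7.29 on array 1 and from 38.7 to 9.93 on array 2. Of the lists of tissues outside the neural tube, those of surface ectoderm and erythroid cells differed between the arrays in direction. The surface ectoderm list had a median log2 ratio of 0.54 on array 1 and -0.30 on array 2, with sums of 8135 and 11643 in wild type and 12255 and 8950 in Plzf lu/lu. The erythroid list had -0.90 and 0.12, with sums of 465880 and 193890 in wild type and 249890 and 236950 in Plzf lu/lu. The part of these differences in the guidance genes' ratios was not tested. In such tissue RNA, fewer cells of a type and less RNA per cell cannot be told apart.

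The netrin receptors were uneven. Unc5b, a repulsive receptor also found in vessels, measured 395 and 591 on array 1, and 373 and 439 on array 2. Both Plzf lu/lu values were above both wild type values (log2 ratios of 0.58 and 0.24, mean log2 ratio 0.41 ± 0.10 limma SE, n = 2, limma adjusted p = 0.0908). Its second probe, with log2 ratios of 1.05 and 0.57, was higher beyond 1.3-fold on both arrays. The endothelial list of 8 genes, all well above background, had a lower summed signal in Plzf lu/lu, with 5025 and 5594 in wild type, and 4258 and 3971 in Plzf lu/lu. Most of the sum was Egfl7 (3687 and 4141 in wild type, 3297 and 3109 in Plzf lu/lu). Of the list, 3 genes passed the filter and 1 of them, Emcn, was lower beyond 1.3-fold on both arrays. Pecam1 had log2 ratios of 0.04 and -0.34. Neo1, which binds netrins and the repulsive guidance molecules, had log2 ratios of 0.15 and -0.06, and its probe lies 10.3 Mb from that of Zbtb16.

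The probe taken for Dcc, the attractive netrin receptor, does not report on it clearly. Its 60 bases hold 18 copies of the triplet GAA, and the array annotation places it on chromosome 7, whereas RefSeq places Dcc on chromosome 18. It was the only probe of the 106 with such a conflict, compared with 0.173% of the 41504 gene probes with both placements. Its signals were 12790 and 8282 on array 1, and 11017 and 10821 on array 2, while the other 5 Dcc probes stayed at or under 60.9. The brightest of those 5 went from 37.7 to 53.6 on array 1 and from 41.0 to 60.9 on array 2, log2 ratios of 0.51 and 0.57 against -0.63 and -0.03 for the repeat probe. With only the probes placed on their gene's chromosome, an alternative chosen after this was seen, 20 guidance genes passed with a median log2 ratio of 0.11. Ephb2 and Ephb3 were still the pair beyond 1.3-fold, now with adjusted limma p of 0.0441 and 0.0362, and 290 genes in all were under 0.05 in place of 3. These adjusted p-values rest on another set of genes, with 243 higher and 58 lower beyond 1.3-fold in place of 274 and 78.

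Of the Flrt genes, Flrt2 measured 887 and 786 on array 1, and 775 and 524 on array 2 (mean log2 ratio -0.37 ± 0.11 limma SE, n = 2, limma adjusted p = 0.113). It was lower in Plzf lu/lu within each array (log2 ratios of -0.17 and -0.56), though the values overlapped across the unscaled arrays. A second, dimmer Flrt2 probe had log2 ratios of 0.18 and -0.17. Flrt3 measured 1226 and 1649 on array 1 but 1269 and 1257 on array 2, so it was 1.35-fold higher in Plzf lu/lu on the first array and level on the second.

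The 18 dimmer guidance genes were fitted with all 23283 genes that were well above background in the 4 channels. In that fit, 4 of the 39 guidance genes were higher beyond 1.3-fold on both arrays (Ephb2, Ephb3, Epha3 and Unc5a) and 1 lower (Ntng1), beside 2.52% higher and 2.07% lower among all genes. No gene had an adjusted limma p under 0.05 in it, and at an unadjusted p under 0.05, 10 guidance genes were higher and 3 lower (8.88% and 8.11% of all genes).

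Ntng1 encodes netrin-G1, which is anchored in the axon membrane by a lipid and binds a postsynaptic partner in place of Dcc. It measured 204 in wild type and 88.8 in Plzf lu/lu on array 1, and 152 and 85.0 on array 2. Both Plzf lu/lu values were thus lower, with log2 ratios of -1.20 and -0.84 (limma unadjusted p = 0.00151, adjusted p = 0.252). The dimmer probe shown above lies 362.1 kb away and went from 73.8 to 47.4 and from 62.2 to 47.3, log2 ratios of -0.64 and -0.39. Both probes well above background were therefore lower beyond 1.3-fold on both arrays. The brighter probe spans the start of the gene as RefSeq has it in GRCm38.p6, with 17 bases before the start and 43 from it onward. Ntng2, its relative, had log2 ratios of 0.18 and 0.08, but its other probe well above background had -0.84 and -0.19. Ntn3 had -0.19 and 0.04.

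Epha3 had log2 ratios of 0.56 and 1.62, from 77.6 to 114 and from 51.5 to 158, but its 3 probes well above background differed, with mean ratios between 0.07 and 1.09. Unc5a went from 77.2 to 118 and from 94.7 to 125 (log2 ratios of 0.61 and 0.40), and was under 1.3-fold on at least 1 array after normexp with loess or after the GC trend was removed. Unc5c was lower, from 218 to 177 and from 216 to 139 (log2 ratios of -0.30 and -0.63), and its second probe had -0.37 and -0.20. Epha5 and Efna1 were higher on both arrays, with log2 ratios of 0.45 and 0.34, and 0.35 and 0.49. Flrt1 had -1.31 and -0.22, and Epha1 had opposite ratios of 0.82 and -0.65. Epha2, Epha6, Epha8, Epha10, Efna3, Slit3 and Robo2 had mean log2 ratios between -0.05 and 0.33.

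**Figure D3:**
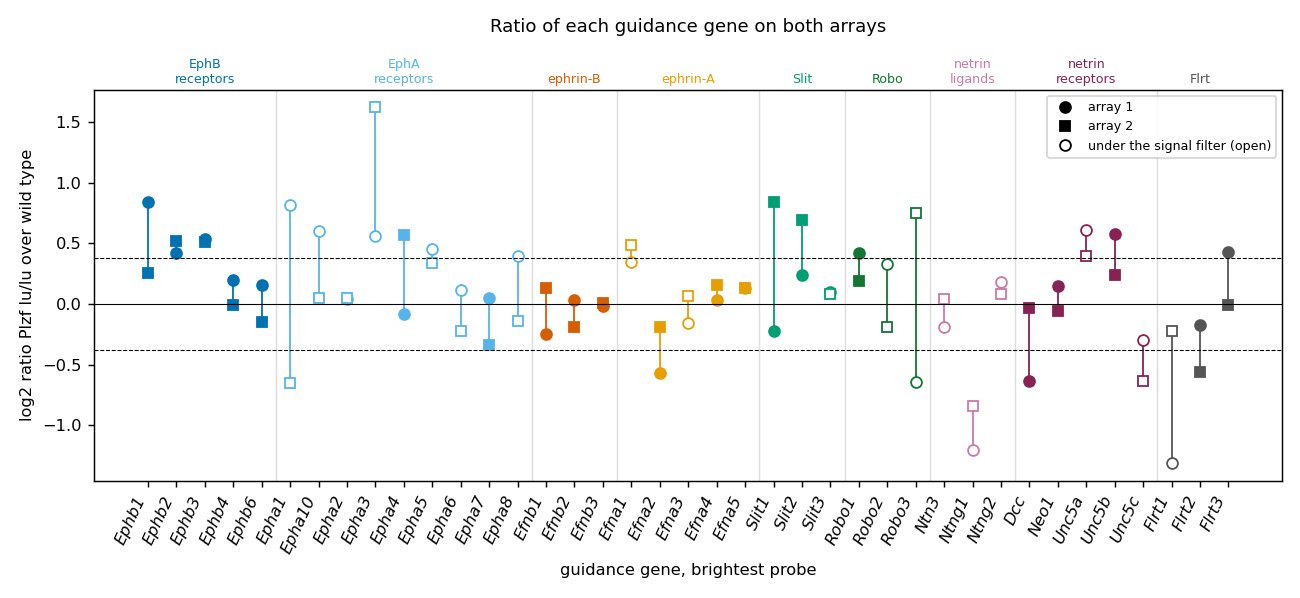
Log2 ratio of Plzf lu/lu over wild type for the 39 guidance genes well above background, circles for array 1 and squares for array 2, joined by a line. Filled symbols passed the signal filter, open ones did not, and dashed lines mark 1.3-fold. Ntng1 lies below the lower line on both arrays, and Ephb2, Ephb3, Epha3 and Unc5a lie above the upper one.

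Where a gene had several probes, they often did not give the same direction. Of the 42 guidance genes, 15 had 1 probe, and 20 had 2 or more that were well above background in all 4 channels. In 10 of the 20, all such probes had mean ratios of 1 sign. In 4 genes every such probe was positive on both arrays (Ephb1, Epha3, Slit2 and Unc5b), and in 3 every one was negative (Flrt1, Ntng1 and Unc5c). Probes of a gene can cover different transcripts and share its RNA samples, so they are not replicates.

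**Figure D4:**
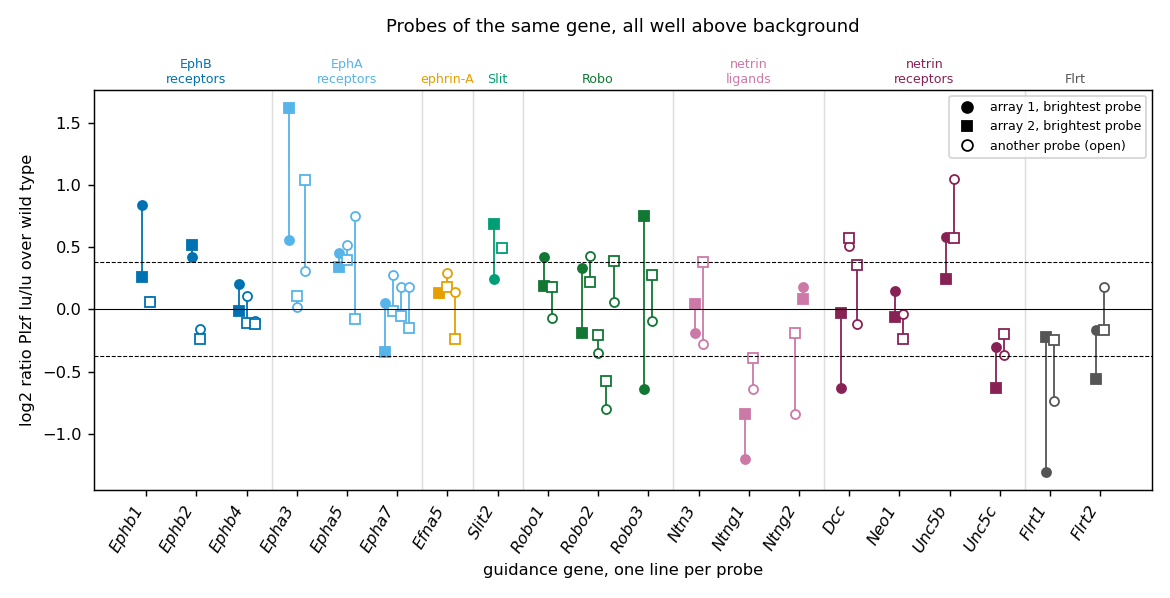
Log2 ratio of each probe well above background for the 20 guidance genes with at least 2 such probes, circles for array 1, squares for array 2, one line per probe. Filled symbols are the brightest probe and open ones the others, and dashed lines mark 1.3-fold. The Ephb2 probes lie on either side of 0, and those of Ntng1 and Unc5b lie on the same side.

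The upstream sequences of Ephb2 and Ephb3 are shown because these genes were higher together. RefSeq promoters in GRCm38.p6 were matched by symbol for 37 of the 42 guidance genes, and the 250 bases before the start are printed from 5′ to 3′ on the gene's strand. Capitals mark GGGCGG (GC box) and CAGCTG (a form of the E-box), searched on both strands and not overlapping each other here. Other forms of the E-box were not searched and are not marked.
Ephb2, chr4:136836013-136836262, minus strand: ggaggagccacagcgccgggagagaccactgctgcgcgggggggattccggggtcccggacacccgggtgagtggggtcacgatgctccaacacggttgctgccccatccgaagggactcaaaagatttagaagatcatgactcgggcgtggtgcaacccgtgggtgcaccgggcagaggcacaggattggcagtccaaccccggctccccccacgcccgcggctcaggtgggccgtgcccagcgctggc
Ephb3, chr16:21204545-21204794, plus strand: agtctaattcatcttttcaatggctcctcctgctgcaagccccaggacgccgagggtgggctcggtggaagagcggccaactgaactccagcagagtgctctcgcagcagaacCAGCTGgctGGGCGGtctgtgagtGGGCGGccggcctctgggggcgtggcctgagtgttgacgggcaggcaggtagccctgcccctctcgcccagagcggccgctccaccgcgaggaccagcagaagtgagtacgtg
Ephb3 held GGGCGG at 2 places and CAGCTG at 1 in this window and Ephb2 held neither of the 2 motifs, and neither gene held TATAAA. The windows were 65.6% and 68.4% GC, against a median of 52% over all genes. Taking the first listed start of each gene, GGGCGG was present in 25 of the 37 guidance genes (67.6%) and 32.9% of 27025 genes, CAGCTG in 4 (10.8%) and 12.8%, and TATAAA in 2 (5.41%) and 13.0%. These are matches of letters only, not adjusted for GC content.

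Of 40 other genes of these pathways (receptor partners, adaptors and cytoskeletal effectors, each on the array), 24 passed the filter, and 2 of them were higher beyond 1.3-fold on both arrays, while none was lower (2.58% and 0.736% of all genes). Rgma, a lipid-anchored repulsive ligand of neogenin, measured 1604 and 2163 on array 1, and 1630 and 2862 on array 2 (log2 ratios of 0.43 and 0.81, limma adjusted p = 0.0574), and the study lists it from these arrays. Srgap2, a Slit-Robo GTPase-activating protein that shapes the actin cytoskeleton, measured 1169 and 1647 on array 1, and 1078 and 1491 on array 2 (0.49 and 0.47, limma adjusted p = 0.0518). The study does not list Srgap2. Both Rgma and Srgap2 had all Plzf lu/lu values above all wild type values, a separation whose share over all genes was not measured. Of the 24, 9 were higher and 2 lower at an unadjusted limma p under 0.05 (15.7% and 12.0% of all genes), none had an adjusted p under 0.05, and the median log2 ratio was 0.14. Draxin and Dscaml1 were not well above background.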

How the data were processed

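Two-color Agilent SurePrint G3 mouse arrays were scanned and processed by the authors with Feature Extraction 10.7.3.1. The deposited processed intensity of each spot is background-subtracted and, per the file headers, dye-normalized by LOWESS over rank-consistent probes, separately for each array. The deposited log10 ratio of Cy5 to Cy3 was computed by the same software, and the deposited log2 values, which served as an alternative, were within 0.005 of it after conversion. Control spots and 137 and 126 outlier spots were dropped here. Log2 signals were averaged over spots of a probe, and the brightest probe stood for its gene. The filter values and the 1.3-fold threshold were those of the study's methods. Requiring the filter in both channels of both arrays was chosen here, and the methods do not state it. The study's list is shorter than the 274 higher and 78 lower genes of this rule. It holds Zbtb16, which failed the filter here. The reason for the gap was not tested. An intercept per gene was fitted to the ratios by lmFit and eBayes of limma 3.58.1 (R 4.3.3), adjusted by Benjamini-Hochberg over all genes tested. The fit was also run on simulated data with less spread than these arrays and larger changes than those of Ephb2 and Ephb3. That run therefore does not show how well changes of their size are found. With 1 residual degree of freedom, p-values and the printed SEs rest on variance pooled across genes as well as on the spread between 2 arrays. Pairing by array is in the ratio. Array number limits the precision.

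The genes, their roles and the marker and partner lists were chosen with earlier results of these data known. Named genes were those beyond 1.3-fold on both arrays or in opposite directions, the 3 brightest of each role, those with an unadjusted p under 0.05, Ephb2 and Zbtb16. Other guidance genes were added after their values were seen, to account for every member. Lists of neural progenitor and mesenchyme markers were also measured, with median log2 ratios of 0.23 and -0.04 on array 1 and 0.31 and -0.15 on array 2. The forebrain list is not reported here as a whole. Sequences are from the array files and RefSeq. Further steps used Python 3.11.15, numpy 2.4.6, pandas 2.3.3, the R package data.table (version 1.17.8) and matplotlib 3.10.9.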

Additional observations from a re-analysis of the deposited data

How the results depend on the processing

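The 2 guidance genes higher beyond 1.3-fold on both arrays became 13 with normexp (offset 50) and median centring, 4 with probes well above background or with no filter, 1 with the GC trend removed, 0 with the next brightest probe (1 gene measured) and 0 at 1.5-fold; on a single array they were 5 to 6. The 0 lower became 1 with probes well above background, 2 with no filter, and 1 to 2 on a single array. Median centring moved the median of all genes from 0.01 to 0.56 on the log2 scale, with 6731 genes higher and 4 lower in place of 274 and 78, and the guidance genes' median of 0.57 is read against that shift. At an unadjusted p under 0.05, the 6 higher became 19 with median centring, 10 with probes well above background, 3 with no filter and 1 with the next probe. The 2 lower became 0 with median centring, the deposited table or the next probe, and 1 with no replicate block (4 channels without pairing by array). At an adjusted p under 0.05, 0 became 18 with median centring, 2 with probes placed on their gene's chromosome and 2 with an eBayes trend (393 genes in all). At an adjusted p under 0.1, 5 became 19 with median centring, 0 with the deposited table, probes well above background or no filter, 3 with the filter in 1 channel, 2 with the mean of probes, 1 with the next probe and 3 with no replicate block. The median log2 ratio of 0.09 was 0.13 after normexp with loess, 0.08 with no filter, 0.24 for the next probe, 0.11 with the GC trend removed or placed probes, and 0.13 on each array alone. Ephb2 had a mean of 0.41 with the GC trend removed and was then under 1.3-fold on array 1. Partner genes higher were 0 at 1.5-fold, and lower were 0 to 1 on a single array. Ephb2 and Ephb3 stayed higher under each alternative that measured them. None of these used the dimmer Ephb2 probe, which failed the signal filter and went the other way. Of the 19 other guidance genes, 11 kept the sign of their mean ratio in every fit of both arrays. The cause of these moves was not tested, except that fewer genes or arrays were measured where so stated. Signals near background limit the dimmer genes.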
